A study of Mus musculus with 6 samples.

Results

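The Bcl2 family members described here are 10 genes that decide on mitochondrial apoptosis and are not usually counted as direct targets of p53: the survival members Bcl2, Bcl2l1 (encoding Bcl-xL), Bcl2l2 (Bcl-w) and Mcl1, the effector Bak1, and the BH3-only members Bcl2l11 (Bim), Bid, Bad, Bmf and Bik. They were chosen by name. All 10 were among the 23420 mouse gene symbols of the count table, and 9 had enough counts to be tested, the exception being Bik. Their transcripts were compared between eEnd2 cells expressing β1-K794Q-GFP and eEnd2 cells expressing β1-WT-GFP, in 3 cultures of each (A, B and C), to see whether the machinery of cell death differed with an Integrin-β1 that mimics the acetylated form.

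The eEnd2 cells are an endothelial line from mouse embryos. All 6 cultures carried a stably transfected plasmid with human Integrin-β1A, tagged with GFP in its extracellular part and driven by a short human β-actin promoter, and none was treated. The chimera was either wildtype or had glutamine in place of the lysine that the name K794Q refers to. Cells were sorted for GFP, grown to confluence in dishes, and their total RNA was sequenced after removal of ribosomal RNA. The mouse gene Itgb1 was not deleted, so the human chimera was present beside the cells' own Integrin-β1. The cultures of a genotype were grown separately from sorted transfected cells, so the p-values measure the spread between these cultures and not between independent transfections. Which of the populations sorted for low or high GFP each culture came from is not given in the sources used here.

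Mitochondrial apoptosis is controlled by contacts between proteins of this family. The effectors Bak and Bax perforate the outer mitochondrial membrane, the survival members hold effectors and BH3-only proteins in a groove on their surface, and the BH3-only proteins, which share little with the others beyond the short BH3 helix, fill that groove or activate the effectors directly. In endothelial cells the balance is known to depend on attachment to the matrix and on growth factors: Bim and Bmf are classical mediators of anoikis, the death of detached cells, and Bim is made from a gene under the control of FOXO transcription factors. Much of this control acts on the proteins themselves, which transcript counts do not measure.

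The stretch of DNA that encodes the BH3 helix core is shown for 6 members because it is the feature by which the family binds to itself. The 6 cover a survival member, the effector and 4 BH3-only members. Each is 42 bases of coding exon of the GENCODE M21 annotation (mouse build GRCm38), written from 5′ to 3′ on the coding strand. Capitals mark the run that encodes leucine or methionine, then any 3 residues, then glycine, alanine or serine, then aspartate. The Bcl2l11 stretch lies at chr2:128147138-128147179 (plus strand), that of Bid at chr6:120897286-120897327 (minus strand), that of Bmf at chr2:118545097-118545138 (minus strand), that of Bad at chr19:6950780-6950821 (plus strand), that of Bak1 at chr17:27022528-27022569 (minus strand) and that of Mcl1 at chr3:95659424-95659465 (plus strand).
Bcl2l11: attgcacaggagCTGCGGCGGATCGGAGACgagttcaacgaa
Bid: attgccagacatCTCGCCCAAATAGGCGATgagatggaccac
Bmf: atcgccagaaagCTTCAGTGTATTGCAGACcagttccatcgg
Bad: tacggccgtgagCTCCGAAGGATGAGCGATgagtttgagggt
Bak1: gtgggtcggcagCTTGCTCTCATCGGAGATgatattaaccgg
Mcl1: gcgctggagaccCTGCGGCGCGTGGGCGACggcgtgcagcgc
The coding sequence of each of the 10 members held this pattern exactly 1 time. The pattern is loose, being present in 39.4% of 20322 genes with a consensus coding sequence, and a match is a description of the sequence only.

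Counts were scaled to the effective library size and are given as normalized counts (CPM, counts scaled to a library of a fixed size). A culture held between 9589826 and 15287191 counts. Genes were compared with edgeR's quasi-likelihood test, and calls needed a fold change of at least 2 and, before adjustment, a p of 0.05 or less. Of 14 endothelial markers 12 were at 1 CPM or more in every culture, the exceptions being Vwf and Sox17, and 0 of 14 were called. Their summed level was between 9085 and 9989 CPM in β1-WT-GFP and between 7458 and 14008 CPM in β1-K794Q-GFP cultures. Single markers could differ more. Sox17 was at 0.296 CPM in β1-K794Q-GFP B and between 17.9 and 205 CPM in all other cultures. Flt1 was at 31.3 CPM in β1-K794Q-GFP B and at 457 CPM in β1-K794Q-GFP C. Of 9 mesenchymal and 5 epithelial markers, 0 reached 1 CPM in every culture, and of 6 blood cell markers only Cd68 did. Another blood cell marker, Csf1r, was at 10.7 CPM in β1-WT-GFP C and at 0.774 CPM or less elsewhere. Cd68 was lower in β1-WT-GFP C (37.2 CPM) than in A (76.5 CPM) and B (88.6 CPM). The mesenchymal markers summed to at most 3.75 CPM in 5 cultures and to 30.7 CPM in β1-WT-GFP culture C. Cultures of the same genotype differed in how close they were. β1-WT-GFP A and B were at least 2-fold apart for 66 genes (0.569% of 11608 tested), and β1-WT-GFP C was that far from A for 2701 genes (23.3%) and from B for 2539 genes (21.9%). Among β1-K794Q-GFP cultures, B was at least 2-fold from A for 2001 genes and from C for 2562 genes, against 903 genes between A and C. Even so, β1-WT-GFP A and B differed by more than sampling noise, since their chi-square over 11427 genes was 10.1 times its degrees of freedom. The same value was 284 and 254 for β1-WT-GFP C against A and B, and 59.4 to 145 for the β1-K794Q-GFP pairs. A and B were kept as separate cultures, which the chi-square alone does not establish. In RNA from whole cultures, a lower level per cell cannot be told apart from fewer cells that express the gene.

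None of the 9 tested members passed the thresholds. Among all 11608 tested genes 603 were called, 404 with more and 199 with fewer transcripts in β1-K794Q-GFP cells, which is 5.19%, so that a count of 0 in 9 is near the background. In this comparison of all 6 cultures, without a regional level in the fit, the count of members at an unadjusted p up to 0.05 was also 0, with edgeR and with DESeq2. At an adjusted p of at most 0.05 it was 0 again, where 21 of all tested genes (0.181%) passed. The lowest p of a member was 0.260 (Bad, adjusted p = 0.781, edgeR's quasi-likelihood test after Benjamini-Hochberg adjustment). For every member the values of both groups overlapped, against 1923 of all tested genes (16.6%) with groups that did not. The log2 fold change of β1-K794Q-GFP over β1-WT-GFP was positive for 6 members and negative for 3, with a median of 0.20 (all tested genes: -0.02). The median size of the change, without its sign, was 0.32 for members and 0.26 for all tested genes.

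**Figure D1:**
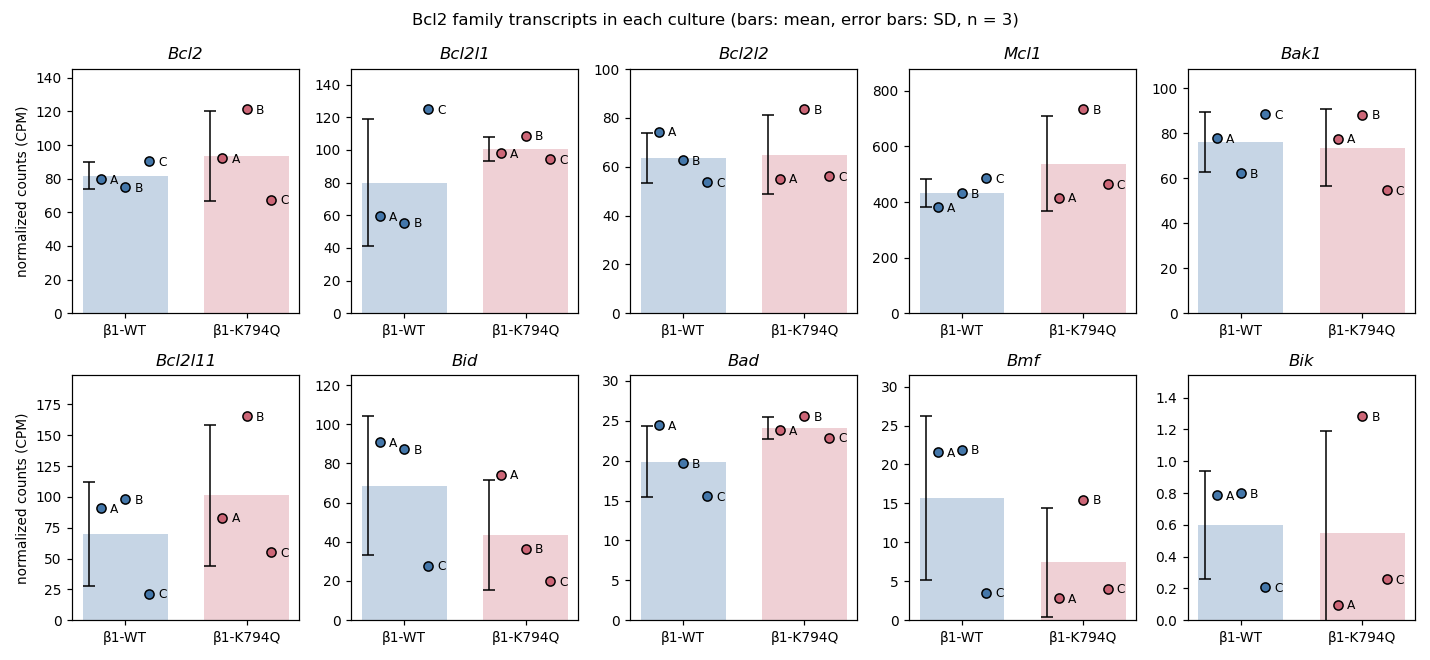
Normalized counts (CPM, vertical axes, each starting at 0) of the 10 members in β1-WT-GFP (blue) and β1-K794Q-GFP (red) cultures. Points are cultures A, B and C, bars the mean and error bars the SD (n = 3). The points of both groups overlap in every panel, and for Bcl2l11, Bid and Bmf the β1-WT-GFP C point lies far below A and B.

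Mcl1, on chromosome 3 (95658788 to 95663176), encodes a short-lived survival protein that binds Bim and Bak. It was at 381, 431 and 485 CPM in β1-WT-GFP A, B and C and at 416, 733 and 465 CPM in β1-K794Q-GFP A, B and C. A single β1-K794Q-GFP culture, B, was above all others, and the remaining 5 lay between 381 and 485 CPM. Between the groups the log2 fold change was 0.32 ± 0.28 (SE, 95% interval -0.36 to 0.99, adjusted p = 0.809, edgeR with Benjamini-Hochberg adjustment), and without β1-K794Q-GFP B it was 0.03.

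Bcl2, on chromosome 1 (106538178 to 106714274), is the founding survival member. Its levels were 79.6, 74.98 and 90.5 CPM in β1-WT-GFP and 92.1, 121 and 67.5 CPM in β1-K794Q-GFP A, B and C. The highest and the lowest value both came from β1-K794Q-GFP cultures, so the mutant group enclosed the wildtype group. Its log2 fold change was 0.20 ± 0.24 (SE, 95% interval -0.39 to 0.78, adjusted p = 0.877, edgeR with Benjamini-Hochberg adjustment). The 25 genes around Bcl2 on the chromosome had a running median 0.37 lower in β1-K794Q-GFP cells on the log2 scale (-0.37). With this regional level taken into the fit the value for Bcl2 was 0.53 (unadjusted p = 0.0177, adjusted p = 0.453 in the edgeR fit). It was again not called, being under 2-fold.

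Bcl2l2, on chromosome 14 (54883377 to 54888234), encodes Bcl-w, a survival member with a role like that of Bcl-xL. It was at 74.3, 62.8 and 53.6 CPM in β1-WT-GFP and at 55.2, 83.5 and 56.1 CPM in β1-K794Q-GFP A, B and C. This gave a log2 fold change of 0.03 ± 0.23 (SE, 95% interval -0.53 to 0.59, adjusted p = 0.980, edgeR with Benjamini-Hochberg adjustment). It was the member with the smallest difference between groups.

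Bcl2l1, on chromosome 2 (152780668 to 152831728), encodes Bcl-xL, which holds Bak, Bax and BH3-only proteins. Its levels were 59.5, 55.4 and 125 CPM in β1-WT-GFP and 98.1, 109 and 94.5 CPM in β1-K794Q-GFP A, B and C. The mutant cultures were close to each other and lay between the wildtype cultures A and B below them and C above them. β1-WT-GFP C was 2.17 times the mean of A and B. The fitted log2 fold change was 0.33 ± 0.34 (SE, 95% interval -0.49 to 1.15, adjusted p = 0.840, edgeR with Benjamini-Hochberg adjustment). Without β1-WT-GFP C it was 0.82 (unadjusted p = 0.00195 and adjusted p = 0.101 in the edgeR fit), still under 2-fold.

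Bak1, on chromosome 17 (27019810 to 27029009), is the effector in this group of genes, resident in the mitochondrial membrane. Its levels were 77.8, 62.1 and 88.4 CPM in β1-WT-GFP and 77.5, 88.1 and 54.7 CPM in β1-K794Q-GFP A, B and C. Both groups covered nearly the same range. Its log2 fold change was -0.05 ± 0.24 (SE, 95% interval -0.63 to 0.52, adjusted p = 0.971, edgeR with Benjamini-Hochberg adjustment).

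Bad, on chromosome 19 (6941861 to 6951899), encodes a BH3-only protein that binds Bcl-2, Bcl-xL and Bcl-w and is kept inactive by phosphorylation downstream of growth factors. Its levels were 24.4, 19.7 and 15.5 CPM in β1-WT-GFP and 23.8, 25.6 and 22.9 CPM in β1-K794Q-GFP A, B and C. Its SD of log2(CPM + 0.5) within groups, pooled over both groups, was the smallest of the tested members (0.23), although among the wildtype cultures alone its coefficient of variation (22.3%) was above that of Bcl2 (9.73%), Mcl1 (11.99%), Bcl2l2 (16.3%) and Bak1 (17.4%). For Bad the log2 fold change was 0.28 ± 0.22 (SE, 95% interval -0.26 to 0.82), the overlap of the groups coming from β1-WT-GFP A.

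Bcl2l11, on chromosome 2 (128126038 to 128162547), encodes Bim, which binds every survival member. Its levels were 90.6, 98.3 and 21.4 CPM in β1-WT-GFP and 83.0, 165 and 55.0 CPM in β1-K794Q-GFP A, B and C. Wildtype cultures A and B had on average 4.42 times the level of C, and the mutant cultures spanned a similar breadth with B on top. Over the groups its log2 fold change was 0.53 ± 0.65 (SE, 95% interval -1.03 to 2.09, adjusted p = 0.875, edgeR with Benjamini-Hochberg adjustment). Leaving out β1-WT-GFP C brought it to 0.11, and leaving out β1-K794Q-GFP B brought it to -0.01.

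The 250 bases before the first annotated start of Bcl2l11 are printed because the gene is a known target of FOXO factors and the levels of Foxo1 and Foxo3 were measured in the same cultures. They lie at chr2:128125788-128126037 (plus strand), are taken from RefSeq (GRCm38.p6) and read 5′ to 3′, with a match to the FOXO motif TGTTTAC in capitals, here on the opposite strand.
Bcl2l11 upstream: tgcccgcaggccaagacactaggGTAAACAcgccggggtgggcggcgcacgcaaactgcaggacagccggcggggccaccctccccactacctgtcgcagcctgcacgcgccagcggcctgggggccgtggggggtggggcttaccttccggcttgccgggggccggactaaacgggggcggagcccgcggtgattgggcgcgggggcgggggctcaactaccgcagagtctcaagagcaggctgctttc
The match starts at position -227 from the start of the gene. Searched on both strands, the motif was present in 1040 of 32851 such windows of all genes (3.17%) and, of 15 windows belonging to 9 members, in this 1 alone. Foxo3 itself was at 48.6, 53.5 and 25.6 CPM in β1-WT-GFP and at 46.6, 54.4 and 36.5 CPM in β1-K794Q-GFP A, B and C, with a log2 fold change of 0.11 ± 0.32 (SE) that was not called. Foxo1, named after its values were seen, was at 81.4, 98.1 and 195 CPM in β1-WT-GFP and at 95.8, 90.6 and 97.6 CPM in β1-K794Q-GFP A, B and C, with a log2 fold change of -0.40 ± 0.34 (SE) that was not called. In β1-WT-GFP C, where Bcl2l11 was lowest, Foxo3 was therefore at its lowest and Foxo1 at its highest. A relation of either gene to Bcl2l11 was not tested.

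Bid, on chromosome 6 (120891930 to 120916853), encodes the BH3-only protein that caspase-8 cleaves, linking death receptors to mitochondria. Its levels were 90.9, 87.3 and 27.8 CPM in β1-WT-GFP and 74.3, 36.4 and 19.8 CPM in β1-K794Q-GFP A, B and C. Wildtype A and B were 3.21 times C on average, and mutant A was well above B and C, so that each group held high and low cultures. Its log2 fold change was -0.66 ± 0.61 (SE, 95% interval -2.14 to 0.83, adjusted p = 0.818, edgeR with Benjamini-Hochberg adjustment). It ranged from -1.28 without β1-K794Q-GFP A to -0.31 without β1-K794Q-GFP C, with 0 calls among these fits.

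Bmf, on chromosome 2 (118528757 to 118549687), encodes a BH3-only protein tied to the actin cytoskeleton in attached cells. Its levels were 21.6, 21.9 and 3.55 CPM in β1-WT-GFP and 2.79, 15.5 and 4.04 CPM in β1-K794Q-GFP A, B and C. The cultures were therefore either high, as wildtype A and B and mutant B were, or low, as wildtype C and mutant A and C were. Its log2 fold change, -1.07 ± 0.89 (SE, 95% interval -3.22 to 1.07, adjusted p = 0.784, edgeR with Benjamini-Hochberg adjustment), was the largest among the tested members and the only one past 2-fold. Without β1-K794Q-GFP B it was -2.18 and passed both thresholds (unadjusted p = 0.0480, adjusted p = 0.352 in the edgeR fit). Without β1-WT-GFP C it was -1.54 and did not pass.

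Bik, on chromosome 15 (83526862 to 83544634), encodes a BH3-only protein of the endoplasmic reticulum. It had 9, 8 and 3 counts in β1-WT-GFP and 1, 13 and 3 counts in β1-K794Q-GFP A, B and C, or 20 counts against 17 in all. This was too few for the count filter of the test. In the fit without that filter Bik was included and not called. In 3 of the 6 cultures it was at or below 3 counts, which is as much as a count of 0 permits (0.209 to 0.300 CPM, covering counting error only). A difference in Bik was not detectable at this depth.

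**Figure D2:**
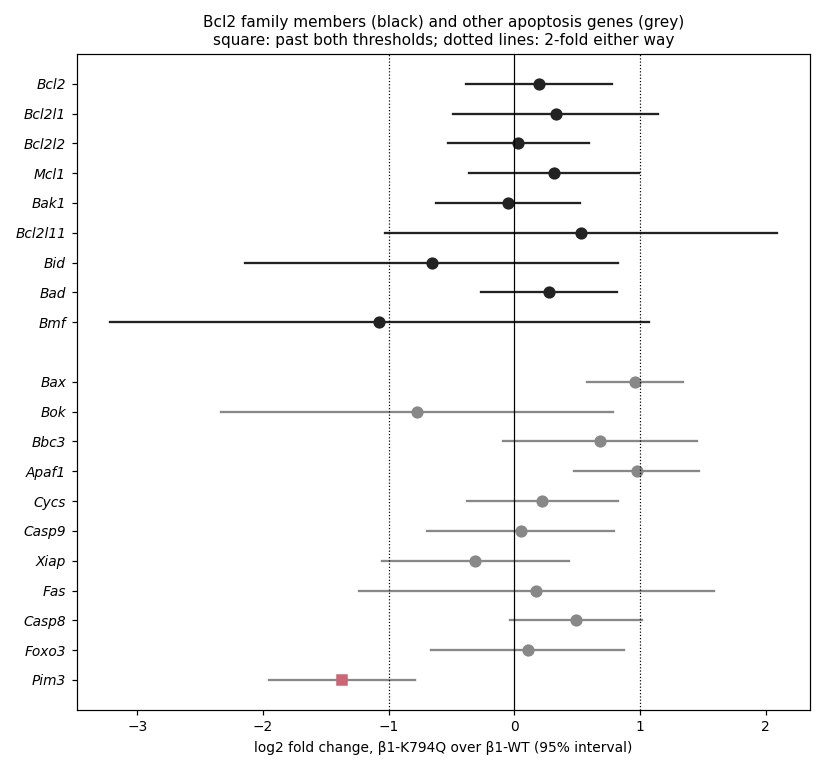
Log2 fold change of β1-K794Q-GFP over β1-WT-GFP (horizontal axis, points) with its 95% interval (lines) for the 9 tested members (black) and the named other apoptosis genes (grey; the red square passed both thresholds). All 9 member intervals cross 0, those of Bcl2l11, Bid and Bmf are the widest, and the intervals of Bax, Apaf1 and Pim3 do not cross 0.

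The precision differed among members. For 5 of them, Bcl2, Bcl2l2, Mcl1, Bad and Bak1, the 95% interval lay within a 2-fold difference either way. For the other 4, Bcl2l1, Bcl2l11, Bid and Bmf, it reached past 2-fold, so a difference of that size was not excluded. It did so upward only for Bcl2l1 (-0.49 to 1.15), downward only for Bid (-2.14 to 0.83), and both ways for Bcl2l11 and Bmf. The within-group SD of log2(CPM + 0.5) was 1.32 for Bmf, 1.03 for Bcl2l11 and 0.95 for Bid. These lay above the 75th percentile of all tested genes (0.59), and for Bmf and Bcl2l11 also above the 90th (0.99). The remaining members varied from 0.23 (Bad) to 0.46 (Bcl2l1), around the median of all tested genes (0.35).

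**Figure D3:**
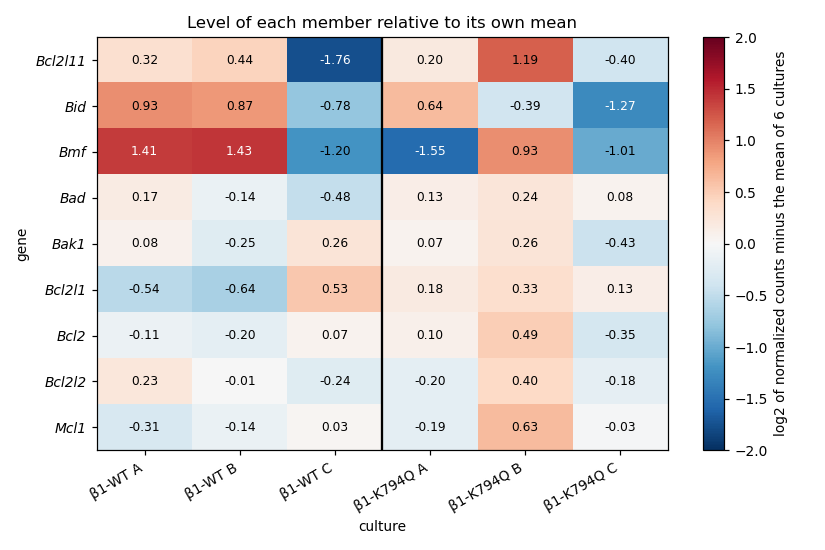
Log2 of normalized counts of each tested member minus its own mean over the 6 cultures, by culture (columns; β1-WT-GFP left of the line, β1-K794Q-GFP right), on a colour scale from blue (lower) to red (higher). Bcl2l11, Bid and Bmf are at -1.76, -0.78 and -1.20 in β1-WT-GFP C, where Bcl2l1 is at 0.53; the deviations of Bcl2, Bcl2l2, Bad, Bak1 and Mcl1 stay between -0.48 and 0.63.

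The BH3-only members with wide spread parted in the same β1-WT-GFP culture, C, but not all between the same β1-K794Q-GFP cultures. Between β1-WT-GFP A and B, 0 of 9 tested members differed by 2-fold or more. Between A and C, and likewise between B and C, 4 were: Bcl2l11, Bid and Bmf were lower in C and Bcl2l1 was higher. In β1-K794Q-GFP cells, Bid and Bmf differed that much between A and B, Bid alone between A and C, and Bcl2l11 and Bmf between B and C. The 4 members that set β1-WT-GFP C apart did so beside 23.3% and 21.9% of all tested genes in the same pairs of cultures. The mesenchymal marker sum of 30.7 CPM was found in the same culture, and its part in these levels was not tested.

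**Figure D4:**
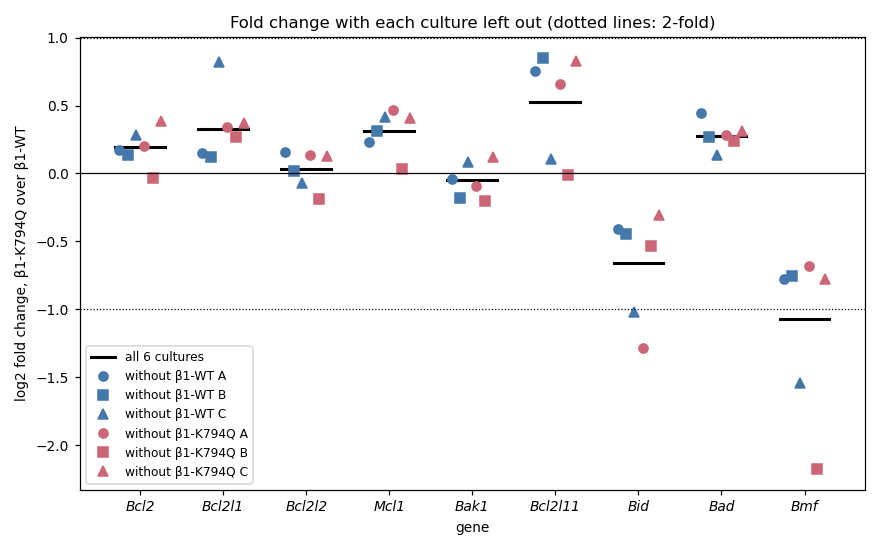
Log2 fold change of β1-K794Q-GFP over β1-WT-GFP (vertical axis) of each tested member with all 6 cultures (black lines) and in fits that lack a single culture (symbols). Bmf moves from -0.68 to -2.18, Bid from -0.31 to -1.28 and Bcl2l11 from -0.01 to 0.85, while Bad stays between 0.14 and 0.45.

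Levels of different genes were compared per kilobase of exon. The length counted all annotated exons of a gene, and which of its transcripts were present was not measured. On this scale Mcl1 was the most abundant member, with 127 ± 15.2 normalized counts per kilobase in β1-WT-GFP and 157 ± 49.99 in β1-K794Q-GFP cells (SD, n = 3). Bak1 came next in every culture, at 31.6 ± 5.50 and 30.5 ± 7.10 per kilobase. In β1-WT-GFP cells it was followed by Bid (19.3 ± 9.98), Bcl2l1 (17.4 ± 8.50), Bcl2l2 (14.2 ± 2.33), Bcl2 (8.92 ± 0.87), Bcl2l11 (8.73 ± 5.28) and Bad (7.77 ± 1.74). Bid overlapped with Bcl2l1 and Bcl2l1 with Bcl2l2, and likewise Bcl2 with Bcl2l11 and Bcl2l11 with Bad, whereas every wildtype value of Bcl2l2 was above those of Bcl2. Bmf (2.99 ± 2.00) and Bik (0.376 ± 0.212) were the lowest. In β1-K794Q-GFP cells the mean of Bcl2l1 (21.9 ± 1.62) was above those of Bcl2l2 (14.5 ± 3.61), Bcl2l11 (12.6 ± 7.15) and Bid (12.3 ± 7.88). Single cultures were not all in that order. Bcl2l1 in culture C (20.6) was below Bid in culture A (20.9) and about level with Bcl2l11 in culture B (20.6). Bmf was at 1.42 ± 1.33.

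Mcl1 alone supplied between 73.5% and 79.4% of the summed survival transcripts per kilobase in all 6 cultures. That sum was 150, 160 and 191 in β1-WT-GFP and 166, 270 and 177 in β1-K794Q-GFP A, B and C. The BH3-only members together reached 51.0, 49.2 and 17.4 in β1-WT-GFP and 41.2, 44.6 and 22.3 in β1-K794Q-GFP A, B and C. The BH3-only sum leaves out Bbc3 and Pmaip1, which encode BH3-only proteins outside the members. Both sums overlapped between the groups, and within each group culture C had the lowest BH3-only sum. The ratio of the BH3-only sum to the survival sum was accordingly 0.341, 0.307 and 0.0909 in β1-WT-GFP A, B and C. It was 0.249, 0.165 and 0.126 in β1-K794Q-GFP A, B and C, and was not tested. Its wildtype range enclosed its mutant range.

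**Figure D5:**
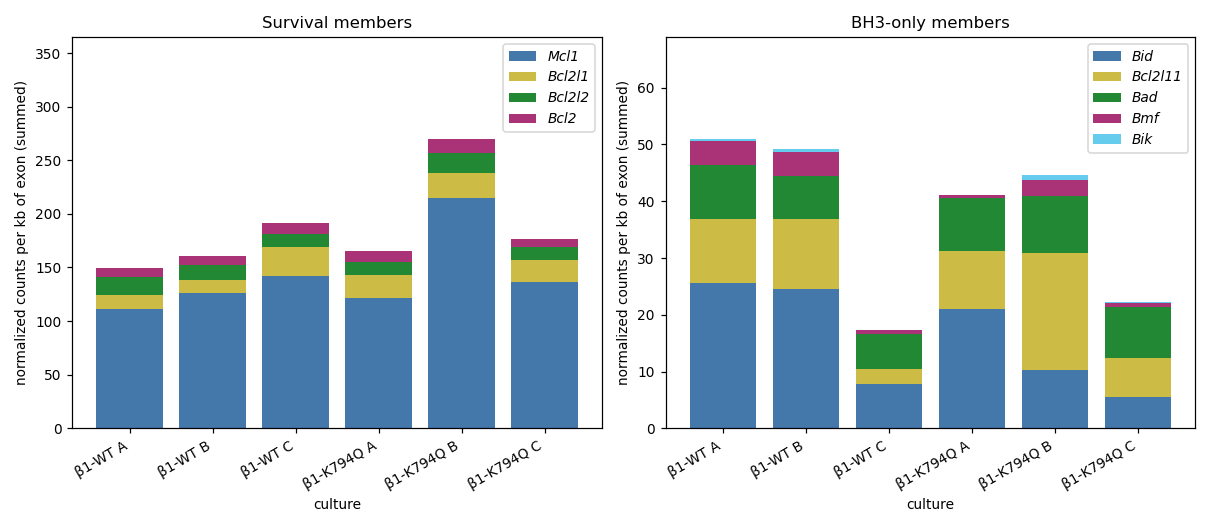
Summed normalized counts per kilobase of exon (vertical axes, starting at 0) of the survival members (left) and the BH3-only members (right) in each of the 6 cultures, stacked by gene. Mcl1 makes up 73.5% to 79.4% of every survival bar, and the BH3-only bars of the C cultures, at 17.4 and 22.3, are the shortest of their groups.

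The BH3-only sum also differed in its make-up. Bid supplied 50.2%, 49.97% and 45.1% of it in β1-WT-GFP and 50.9%, 23.0% and 24.98% in β1-K794Q-GFP A, B and C. Bcl2l11 supplied 22.1%, 24.9% and 15.3% in β1-WT-GFP and 25.1%, 46.2% and 30.7% in β1-K794Q-GFP A, B and C. Bad supplied 18.7%, 15.7% and 35.0% in β1-WT-GFP and 22.6%, 22.4% and 40.1% in β1-K794Q-GFP A, B and C. Bid was thus the largest contributor in the 3 wildtype cultures and in mutant A, Bcl2l11 in mutant B and Bad in mutant C. The shares of Bcl2l11 did not overlap between the groups, by a narrow margin (24.9% in β1-WT-GFP B, 25.1% in β1-K794Q-GFP A), although its levels did. Those of the other BH3-only members overlapped. This is given as a description of 3 cultures against 3, beside 16.6% of all tested genes with levels that did not overlap.

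Some reads of 5 members cannot be told apart from those of a neighbour, since the strand setting of the counting is not given in the sources used here. Exons on the opposite strand overlapped 25.5% of the Bak1 exon bases (Ggnbp1), 20.5% of those of Bad (Gpr137), 17.7% of those of Bid (Bcl2l13, itself a relative of the family) and 6.09% of those of Bcl2 (D630008O14Rik). For Bcl2l2, 13.3% of the exon bases were shared with Gm20521 on the same strand. These are shares of exon bases and not of reads, and how far the overlaps changed the levels of these members was not measured.

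Around the members, 72 other genes of the apoptotic pathway were listed, of which 71 were in the table and 59 were tested. Of these 59, 0 were higher and 1 was lower by both thresholds (5.19% of all tested genes were called), and 9 had groups that did not overlap, 4 above and 5 below (16.6% of all tested genes). The median log2 fold change of the 59 was 0.01, with 32 positive and 27 negative values. At an adjusted p of at most 0.05 there were 0 of them in edgeR's quasi-likelihood test, and without adjustment 6 were at p up to 0.05. The called gene was Pim3, on chromosome 15, a kinase that phosphorylates Bad on a site that keeps it inactive. Pim3 was at 31.8, 30.1 and 32.4 CPM in β1-WT-GFP and at 12.6, 14.9 and 8.94 CPM in β1-K794Q-GFP A, B and C. It fell by 1.37 ± 0.24 (SE) on the log2 scale (unadjusted p = 0.00102, adjusted p = 0.104, edgeR with Benjamini-Hochberg adjustment). Every mutant culture lay below every wildtype culture, and in the fits that lacked a culture the value stayed between -1.54 and -1.19. Pim3 was called under all 13 alternatives, while the number of listed genes called, Pim3 included, ranged from 1 to 5, and it was 3 to 5 whenever a single culture was left out (5 without β1-WT-GFP A, without β1-WT-GFP C or without β1-K794Q-GFP C, and 3 without any other). The level of its substrate Bad was 19.9 ± 4.44 CPM in β1-WT-GFP and 24.1 ± 1.37 CPM in β1-K794Q-GFP cells (SD, n = 3).

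Among the 15 other family members listed, 7 were tested and 0 were called. Bax, the effector that shares its function with Bak and is a p53 target, was at 66.7, 53.5 and 55.7 CPM in β1-WT-GFP and at 114, 107 and 121 CPM in β1-K794Q-GFP A, B and C. Its groups did not overlap, unlike those of Bak1, and its log2 fold change was 0.96 ± 0.16 (SE, unadjusted p = 0.000768, adjusted p = 0.0955, edgeR with Benjamini-Hochberg adjustment), just short of 2-fold. With the regional level taken into the fit it was 1.21 and was called, as it was without β1-WT-GFP A (1.06) and without β1-K794Q-GFP B (1.01). Bbc3, encoding the BH3-only protein Puma, had a log2 fold change of 0.68 ± 0.32 (SE) and Bok, a more distant effector, one of -0.77 ± 0.64 (SE), and neither was called. Pmaip1, encoding Noxa, which binds Mcl-1, was not tested: it was at 22.1 CPM in β1-K794Q-GFP B and at 2.16 CPM or less in the other 5 cultures. Hrk and the Bcl2a1 genes Bcl2a1a, Bcl2a1b and Bcl2a1d had 0 counts in every culture.

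A further list held apoptosome and caspase genes together with other mitochondrial genes, among them membrane channels. Of this list 14 genes were tested and 0 were called. Apaf1, the scaffold of the apoptosome, was at 94.4, 90.5 and 75.8 CPM in β1-WT-GFP and at 144, 209 and 159 CPM in β1-K794Q-GFP A, B and C, a log2 fold change of 0.97 ± 0.21 (SE, unadjusted p = 0.00277, adjusted p = 0.158, edgeR with Benjamini-Hochberg adjustment). Its neighbours on chromosome 10 had a running median 0.71 higher in β1-K794Q-GFP cells on the log2 scale, and with that level taken into the fit Apaf1 was at 0.26. It was called without β1-WT-GFP A (1.03), without β1-WT-GFP B (1.001), without β1-K794Q-GFP A (1.08) and without β1-K794Q-GFP C (1.02). Its groups did not overlap, and with all cultures it stopped just short of 2-fold. Casp9, the caspase that the apoptosome activates, had a log2 fold change of 0.05 ± 0.31 (SE), and Cycs, encoding cytochrome c, one of 0.22 ± 0.25 (SE).

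Of 7 tested inhibitors of apoptosis and 9 tested genes of the death receptor branch, 0 were called. Xiap, which blocks caspases, had a log2 fold change of -0.31 ± 0.31 (SE). Casp8, which cleaves Bid, was at 40.1, 44.9 and 54.5 CPM in β1-WT-GFP and at 58.0, 56.5 and 81.2 CPM in β1-K794Q-GFP A, B and C, a log2 fold change of 0.49 ± 0.22 (SE, adjusted p = 0.528, edgeR with Benjamini-Hochberg adjustment) with groups that did not overlap. Fas, a death receptor, had a log2 fold change of 0.18 ± 0.59 (SE). Of 22 tested regulators of the members, which included Foxo3, Pim3 was the only one called.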

How the data were processed

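Total RNA of 3 β1-WT-GFP and 3 β1-K794Q-GFP cultures was sequenced. The authors aligned reads to the mouse genome (STAR 2.7.4a, HTSeq 0.9.1, bcl2fastq 2.20.0, edgeR 3.38.4 and mm10 are named in the submitters' processing notes), and the deposited values are raw counts per gene symbol; the annotation and strand setting are not given in the sources used here. Totals ranged from 9589826 to 15287191 counts per culture.

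The test was run with edgeR 4.0.16 under R 4.3.3 (filterByExpr, 11608 genes kept; TMM; quasi-likelihood test, two-sided, genotype only; common dispersion 0.186), the model and thresholds of the study, with Benjamini-Hochberg adjustment over all tested genes. The SE is the size of the log2 fold change divided by the square root of F. The scripts were tested on simulated data. Positions and exon lengths came from GENCODE M21 (GRCm38, the same assembly as mm10), matched by symbol for 21777 symbols and by synonym for 1260. Alternatives were RLE normalization, 2 other filters, DESeq2 1.42.0, the likelihood ratio test, the culture letter as a block, the regional level (running median of 25 neighbours) as an offset, and leaving out each culture. Python 3.11.15 was used for tables and plots.

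The members and gene lists were chosen with earlier results of these data known. Named were all 10 members, each listed gene past both thresholds, and Bax, Bok, Bbc3, Pmaip1, Apaf1, Casp9, Cycs, Xiap, Casp8, Fas and Foxo3; the Bcl2a1 genes, Hrk, Foxo1 and the overlapping neighbours are named in addition, and 1 gene that the rule names is not reported here. Other assays of the study were not analysed here.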

Additional observations from a re-analysis of the deposited data

How the results depend on the processing

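Of 117 log2 fold changes of the tested members under 13 alternatives, 109 kept their direction and their side of the thresholds, 7 changed sign and 1 passed the thresholds. The count of members called was 0 under RLE, both other filters, DESeq2, the likelihood ratio test, the block and the regional offset, and ranged from 0 to 1 with a culture left out (Bmf, without β1-K794Q-GFP B). With a culture left out, Bcl2 ranged from -0.0296 to 0.39, Bcl2l2 from -0.19 to 0.15, Bcl2l11 from -0.00954 to 0.85, Bak1 from -0.20 to 0.12, Casp9 from -0.21 to 0.31, Fas from -0.17 to 0.55 and Foxo3 from -0.14 to 0.30; with the regional level in the offset Bcl2l2 was at -0.0931 and Foxo3 at -0.0179. The cause of these changes was not tested.

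The count of all tested genes called was 603; it was 916 without a filter, where 15974 genes were tested, and from 501 to 992 with a culture left out (992 without β1-WT-GFP C, 942 without β1-K794Q-GFP B). The count of other apoptosis genes called, 1, was 2 without a filter and 2 with at least 10 counts in every culture, 4 with DESeq2, 4 with the likelihood ratio test, 3 with the culture letter as a replicate block, 3 with the regional offset, and from 3 to 5 with a culture left out. Whether the letters pair the cultures was not settled. Same-letter correlations of deviations were 0.11, 0.06 and 0.10 for A, B and C. Between different letters only β1-WT-GFP B with β1-K794Q-GFP A was positive (0.11), and the lowest value was -0.16. The block gave 571 calls over all tested genes. With it, the unadjusted p of edgeR's quasi-likelihood test moved from 0.323 to 0.0517 for Bid and from 0.441 to 0.113 for Bcl2l11. Neither was called, and their adjusted p with the block was 0.551 and 0.686. For Bcl2, Bcl2l2 and Mcl1 the unadjusted p rose with the block.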
